A study of Mus musculus with 6 samples.

Results

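Accessible chromatin around 6 neural patterning genes of the Pax family (*Pax2*, *Pax3*, *Pax5*, *Pax6*, *Pax7* and *Pax8*) was compared between mouse neural stem/progenitor cells (NSPCs) with and without the *Sox2* enhancer cluster SRR2–18. An accessible interval was assigned to a Pax gene when the nearest transcription start site (TSS) of any protein-coding gene to its strongest summit belonged to that gene and lay at most 50 kb away. The rule gave 29 of the 82885 intervals in the parent list and 44 of the 107480 intervals in the ΔSRR2–18 list, or 73 of 190365 in all. All 6 genes had at least 2 intervals in each list.

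The cells were NSPCs derived from embryonic stem cells of a 129S1/Cast F1 Hybrid line that carries a Sox2-mCherry reporter on the 129 allele, kept in N2B27 medium with EGF and bFGF. Parent NSPCs (Clone 5B) had no deletion, and ΔSRR2–18 NSPCs (Clone 47D) had lost SRR2–18 on both alleles, so each genotype was represented by 1 clone and a clonal difference and the deletion cannot be told apart. ATAC-seq, in which a transposase cuts accessible DNA and the fragments are sequenced, was run on 3 cultures per genotype, and the labels give 30000 cells and 50 to 60 M reads per culture. The authors pooled the cultures of a genotype into 1 peak list and kept the peaks that ranked alike across cultures by the irreproducible discovery rate (IDR). The pooled values come without a spread between cultures, so the genotypes are described side by side and not tested.

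Pax proteins are transcription factors that bind DNA through a paired domain, and several also carry a homeodomain. In the developing central nervous system, PAX6 patterns the forebrain and eye, PAX3 and PAX7 mark the dorsal neural tube and the neural crest, and PAX2, PAX5 and PAX8 act at the midbrain-hindbrain boundary and in later neurons of the hindbrain and spinal cord. Accessible intervals mark promoters and candidate enhancers, and the nearest gene is not always the gene that an enhancer serves.

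Summit signal is used below for the number of reads piled up at the strongest summit of an interval, divided by the genome-mean pileup of its list. This scales for depth, since the genome-mean pileup was 1.98 times as high in parent, at 38.8 reads against 19.7 reads. The genome-mean pileup was not counted from reads. It was taken as the lowest local background of any summit in the list, on the assumption that this is the genome mean. The lowest summit signal listed was 1.67 in parent and 1.58 in ΔSRR2–18. As a check of the labels, 4 parent intervals lay 2 to 18 kb downstream of the *Sox2* TSS, with summit signals of 9.76 to 58.0, and the ΔSRR2–18 list held 0 there. As for the labelled cell type, 7 of 7 NSPC genes had a promoter interval in each list and 0 of 5 pluripotency genes had one in either. For scale, 57.8% of all 21924 coding genes had a promoter interval in both lists. It was in ΔSRR2–18 only for 5.93%, in parent only for 2.76% and in neither for 33.5%. The summit signal at all 7 NSPC promoters was lower in ΔSRR2–18, from *Vim* at 105 in parent and 102 in ΔSRR2–18 to *Sox1* at 51.6 and 12.1 and *Fabp7* at 94.2 and 22.6. Most promoters were lower on this scale. Over all promoter intervals found in both lists, the log2 ratio of ΔSRR2–18 to parent had a median of -0.47 and an upper quartile of -0.19. Of 4 markers of mesenchyme and endothelium, 2 had a promoter interval in parent and 3 in ΔSRR2–18. *Pdgfrb* was listed in ΔSRR2–18 only, at 23.4, *Col1a1* stood at 42.7 in parent and 85.5 in ΔSRR2–18, *Twist1* at 73.4 and 54.5, and *Cdh5* was in neither list. Neuron markers had a promoter interval at 2 of 4 genes in parent and 3 of 4 in ΔSRR2–18. Markers of astrocytes and of oligodendrocytes each had 1 of 3 in both lists. *Map2* stood at 134 in parent and 52.55 in ΔSRR2–18, *Tubb3* at 92.4 and 76.6, and *S100b* at 57.6 and 12.1. *Mbp* stood at 5.46 and 18.7, and *Rbfox3* was listed in ΔSRR2–18 only, at 6.26. Whether other cell types had a part in the intervals described here was not tested.

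The intervals that separated the 2 genotypes are easiest to follow with their sequences in view. Each sequence below is the mm10 (GRCm38) reference within 100 bases of a strongest summit, on the plus strand from 5′ to 3′, and the cells carry a Cast genome besides the 129 one. Capitals mark exact matches, on either strand, to 1 of 8 short consensus motifs: SOX CCATTGT, AP-1 TGANTCA, HOX-PBX TGATTNAT, CDX CCATAAA, homeodomain TAATTA, paired-domain core TCACGC, ZIC CCTGCTG and LEF/TCF TCAAAG. The first set holds intervals found in the parent list only: the strongest of the intervals downstream of *Pax6*, which has no match, and the 3 that hold a SOX motif.
*Pax6* 39840 bp downstream, no match, chr2:105715869-105716069: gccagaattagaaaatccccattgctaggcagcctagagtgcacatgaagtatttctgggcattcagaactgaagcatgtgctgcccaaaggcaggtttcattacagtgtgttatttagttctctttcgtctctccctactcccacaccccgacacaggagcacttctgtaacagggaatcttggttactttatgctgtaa
*Pax6* 46463 bp downstream, SOX, chr2:105722492-105722692: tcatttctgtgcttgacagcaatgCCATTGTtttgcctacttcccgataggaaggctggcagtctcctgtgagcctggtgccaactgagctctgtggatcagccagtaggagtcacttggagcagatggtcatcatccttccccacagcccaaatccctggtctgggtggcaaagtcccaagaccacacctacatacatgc
*Pax8* 27776 bp upstream, SOX, chr2:24503275-24503475: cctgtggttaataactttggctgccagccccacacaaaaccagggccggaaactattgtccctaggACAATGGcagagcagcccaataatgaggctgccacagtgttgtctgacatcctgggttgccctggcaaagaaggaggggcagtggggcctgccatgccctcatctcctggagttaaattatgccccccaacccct
*Pax7* 21809 bp downstream, SOX, chr4:139811098-139811298: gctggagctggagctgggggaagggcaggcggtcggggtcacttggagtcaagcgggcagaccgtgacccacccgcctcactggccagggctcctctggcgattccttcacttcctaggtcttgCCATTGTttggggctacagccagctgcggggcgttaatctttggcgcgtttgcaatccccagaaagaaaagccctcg

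The second set holds intervals that were stronger in ΔSRR2–18 NSPCs or listed there only. The first 2 were shared with the parent list and had the largest ratios of summit signal, and the others were listed in ΔSRR2–18 only. Of these, the *Pax8* interval had the highest summit signal, and the *Pax2* and *Pax5* intervals hold an AP-1 motif within the gene.
*Pax2* 46944 bp upstream, AP-1 and LEF/TCF, chr19:44709001-44709201: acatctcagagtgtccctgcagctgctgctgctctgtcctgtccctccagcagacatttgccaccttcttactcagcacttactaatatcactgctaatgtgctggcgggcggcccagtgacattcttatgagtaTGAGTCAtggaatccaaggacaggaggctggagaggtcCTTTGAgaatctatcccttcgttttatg
*Pax8* 43032 bp upstream, AP-1 and CDX, chr2:24518531-24518731: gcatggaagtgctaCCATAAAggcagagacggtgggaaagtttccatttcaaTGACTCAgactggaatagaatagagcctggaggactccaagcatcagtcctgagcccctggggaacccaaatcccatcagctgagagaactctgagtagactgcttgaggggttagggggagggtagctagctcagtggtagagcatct
*Pax8* 22132 bp downstream, CDX, chr2:24453332-24453532: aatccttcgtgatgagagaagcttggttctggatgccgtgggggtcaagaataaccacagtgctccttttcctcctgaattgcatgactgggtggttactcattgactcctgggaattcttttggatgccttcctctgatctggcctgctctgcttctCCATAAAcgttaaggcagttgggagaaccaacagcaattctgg
*Pax2* 24785 bp downstream, SOX, AP-1 and LEF/TCF, chr19:44782079-44782279: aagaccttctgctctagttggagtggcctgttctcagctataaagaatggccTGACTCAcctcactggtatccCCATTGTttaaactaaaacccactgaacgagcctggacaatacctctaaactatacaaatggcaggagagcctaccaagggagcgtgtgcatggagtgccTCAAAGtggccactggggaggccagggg
*Pax5* 28287 bp downstream, AP-1 and LEF/TCF, chr4:44682021-44682221: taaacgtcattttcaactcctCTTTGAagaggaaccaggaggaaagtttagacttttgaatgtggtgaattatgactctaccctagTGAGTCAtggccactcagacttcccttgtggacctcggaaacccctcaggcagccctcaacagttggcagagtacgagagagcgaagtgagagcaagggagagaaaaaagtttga

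The third set is from *Pax3*: the stretch just upstream of its TSS, cut at the first exon, where an interval was listed in ΔSRR2–18 only, and the 1 Pax interval with a paired-domain core. That interval was found in both lists, and its first paired-domain core overlaps the HOX-PBX match.
*Pax3* promoter, no match, chr1:78197135-78197294: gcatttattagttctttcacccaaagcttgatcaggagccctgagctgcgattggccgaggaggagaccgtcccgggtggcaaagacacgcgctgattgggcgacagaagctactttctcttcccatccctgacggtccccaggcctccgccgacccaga
*Pax3* 6808 bp upstream, homeodomain, HOX-PBX and 2 paired-domain cores, chr1:78203842-78204042: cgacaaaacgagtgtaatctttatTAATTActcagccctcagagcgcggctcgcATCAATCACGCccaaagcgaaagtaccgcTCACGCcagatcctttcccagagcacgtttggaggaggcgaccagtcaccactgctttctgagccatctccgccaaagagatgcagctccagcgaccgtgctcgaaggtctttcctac

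Of the 29 parent intervals, 20 overlapped the ΔSRR2–18 list by at least 1 bp and 9 (31.0%) did not. The share over all parent intervals was 52.3%. Of the 44 ΔSRR2–18 intervals, 24 (54.5%) had no overlap in the parent list, and 63.1% of all ΔSRR2–18 intervals had none. Intervals found in 1 list only were thus a smaller share around the Pax genes than over each list, and the difference was not tested. The whole lists also hold intervals beyond the distance limit, which the Pax set cannot contain. Within the limit lay 55017 of the 82885 parent and 64666 of the 107480 ΔSRR2–18 intervals. Whether distance from a TSS had a part in the difference was not tested. Outside promoters the parent-only share was 34.6% for Pax intervals against 61.0% for all, and the ΔSRR2–18-only share was 55.3% against 70.9%. The parent-only Pax intervals had a median summit signal of 27.3 against 12.2 over all parent-only intervals, with 5 at 27.3 to 59.6 and the other 4 at 4.53 to 9.89, whereas the ΔSRR2–18-only Pax intervals had a median of 11.0 against 14.7. An interval that is missing from a list can still hold accessible DNA below the limits of peak calling and IDR.

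The numbers differed by gene. *Pax2*, *Pax5* and *Pax8*, which form 1 subfamily, had 12 intervals in parent, of which 1 was parent-only, and 23 in ΔSRR2–18, of which 12 were found there only. *Pax3* and *Pax7*, a second subfamily, had 11 in parent with 4 parent-only and 17 in ΔSRR2–18 with 10 found there only. *Pax6* went the other way, with 6 in parent, 4 of them parent-only, and 4 in ΔSRR2–18, 2 of them found there only. The difference between genes was not tested. The order of *Pax6* rests on the distance limit, since within 10 kb it had 0 parent-only intervals and 1 ΔSRR2–18-only interval, and within 200 kb it had 5 of each kind. It also rests on the TSS set, since with 1 TSS per gene, its 5′ end, *Pax6* had 4 intervals in each list and 2 of each kind.

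**Figure D1:**
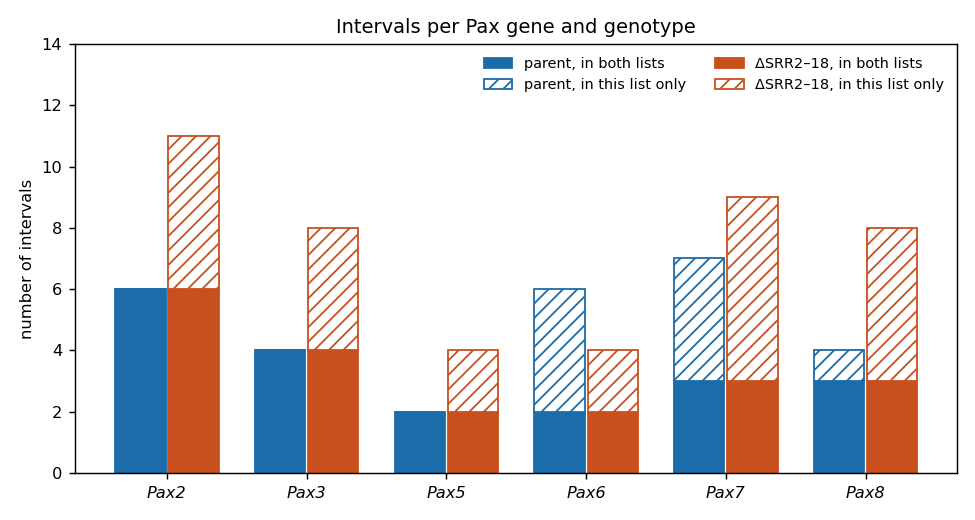
Number of accessible intervals (vertical axis) assigned to each Pax gene (horizontal axis) in parent (blue) and ΔSRR2–18 (orange) NSPCs, from 1 pooled list per genotype. Solid bars are intervals found in both lists and hatched bars those found in the named list only; *Pax6* is the 1 gene with fewer intervals in ΔSRR2–18 (4) than in parent (6).

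*Pax6*, which specifies forebrain progenitors and the eye, had the highest summit signal of all 73 Pax intervals. That interval lay on chr2 from 105674990 to 105675822 in parent, over a *Pax6* promoter and first exon, and its summit signal was 130 in parent and 73.1 in ΔSRR2–18. The log2 ratio of ΔSRR2–18 to parent was -0.83, with a 95% interval of -0.92 to -0.75 that covers counting error only. Over all shared promoter intervals the median log2 ratio was -0.47 and the lower quartile -0.76, and *Pax6* lay below that quartile. Against local background the fold enrichment was 11.9 in parent and 11.8 in ΔSRR2–18, a log2 ratio of -0.02. A second promoter interval of *Pax6*, 156 bp downstream of another TSS, had a summit signal of 40.8 in parent and 40.0 in ΔSRR2–18.

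Downstream of *Pax6* the lists differed. Parent NSPCs had 4 intervals between 33233 and 46463 bp downstream of the nearest *Pax6* TSS, and none of them overlapped the ΔSRR2–18 conservative or optimal list. Their summit signals were 7.52 at 33233 bp, 41.3 at 39840 bp, 34.4 at 44877 bp and 27.3 at 46463 bp. All 4 lay inside the gene body of *Elp4*, which encodes a subunit of the Elongator complex, runs on the opposite strand on chr2 from 105701027 to 105904564 and is known to hold distal enhancers of *Pax6*. Over the whole of *Elp4* the parent list held 9 intervals, 6 of them parent-only, and the ΔSRR2–18 list held 4, 2 of them found there only. This gene was singled out after its values were seen. Outside promoters lay 8 of the 9 parent and all 4 ΔSRR2–18 intervals. Over all intervals outside promoters, 61.0% were parent-only in parent and 70.9% were ΔSRR2–18-only in ΔSRR2–18. Whether *Elp4* differed from these shares was not tested. Of the 4 parent-only *Pax6* intervals, only that at 46463 bp held any of the 8 motifs, the SOX match shown above.

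The ΔSRR2–18 list had 2 *Pax6* intervals of its own, both weak. The first, with a summit signal of 10.4, lay 822 bp downstream of a *Pax6* TSS where the noncoding gene *Pax6os1* overlaps. The second, at 9.72, lay within the gene 12472 bp downstream of the nearest TSS. Both were below the median summit signal of all ΔSRR2–18 intervals, 18.0.

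**Figure D2:**
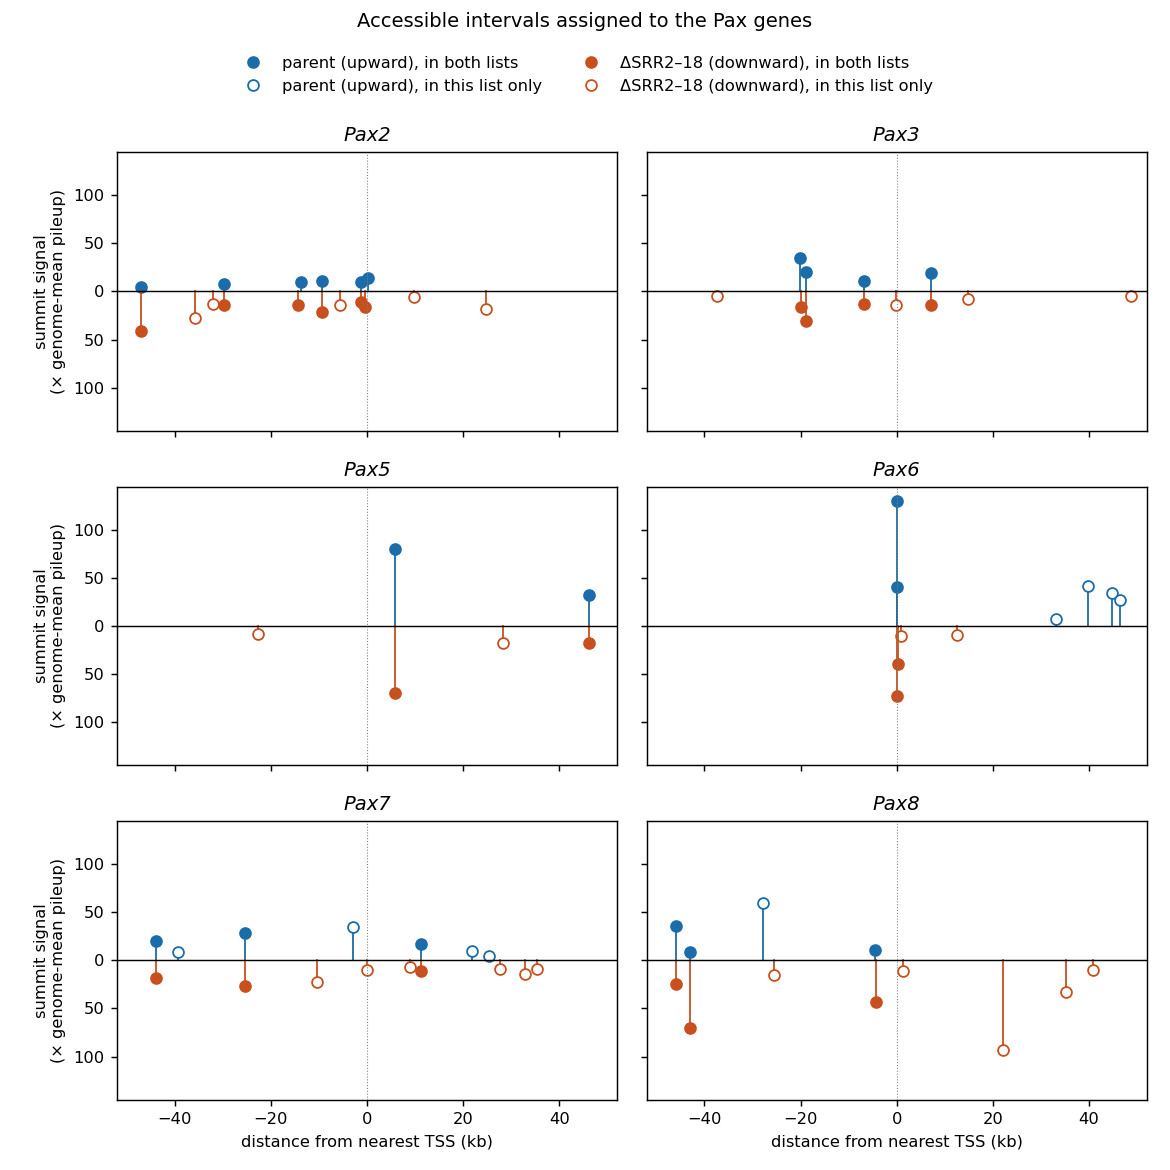
Summit signal in multiples of the genome-mean pileup (vertical axis, upward for parent and downward for ΔSRR2–18) against the distance of the strongest summit from the nearest TSS in kb (horizontal axis, negative upstream) for each Pax gene. Filled points are intervals in both lists and open points those in 1 list only; the 4 open parent points of *Pax6* stand 33233 to 46463 bp downstream, and the lowest open point of *Pax8* is the ΔSRR2–18-only interval at 93.2.

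*Pax8*, expressed at the midbrain-hindbrain boundary and in the thyroid and kidney, had the largest summed summit signal in ΔSRR2–18, 301 over 8 intervals, against 115 over 4 intervals in parent. The 2 lists put their strongest *Pax8* interval in different places. In parent it was an interval 27776 bp upstream with a summit signal of 59.6, which was parent-only and holds a SOX motif. In ΔSRR2–18 it was an interval within the gene 22132 bp downstream with a summit signal of 93.2, which was found there only.

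At 2 shared sites upstream of *Pax8* the signal was higher in ΔSRR2–18 than in parent. The interval 43041 bp upstream had a summit signal of 9.14 in parent and 70.2 in ΔSRR2–18, a log2 ratio of 2.94 (2.77 to 3.11). The interval 4461 bp upstream had 10.8 in parent and 43.8 in ΔSRR2–18, a log2 ratio of 2.02 (1.85 to 2.19). Another shared interval close by, 45920 bp upstream, had 35.3 in parent and 24.1 in ΔSRR2–18; these neighbouring *Pax8* intervals differed in direction. No interval lay within 1 kb of a *Pax8* TSS in either list, the nearest being a ΔSRR2–18-only interval 1243 bp downstream with a summit signal of 11.5. The other ΔSRR2–18-only intervals lay 25534 bp upstream at 15.3, 35278 bp downstream at 33.3 and 40808 bp downstream at 10.1.

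*Pax2*, which is expressed at the midbrain-hindbrain boundary, in the optic stalk and in the kidney, had the most intervals in ΔSRR2–18. That order rests on list length. With the ΔSRR2–18 list shortened by fold enrichment to the length of the parent list, *Pax2* had 6 intervals in each list. In the full lists all 6 of its parent intervals were shared, and 5 further ones were found in ΔSRR2–18 only. The summed summit signal was 56.9 in parent and 197 in ΔSRR2–18, where both the shared and the further intervals added to it. The promoter interval stood at 13.7 in parent and 16.1 in ΔSRR2–18, a log2 ratio of 0.23 between summits 544 bp apart. The direction turned between closest summits, with a log2 ratio of -0.54, and by fold enrichment over local background, with -0.20. The largest ratio among all 20 shared Pax intervals was that of the *Pax2* interval 46957 bp upstream, with 5.15 in parent and 40.9 in ΔSRR2–18, a log2 ratio of 2.99 (2.76 to 3.22). The interval 9255 bp upstream had 10.7 in parent and 21.7 in ΔSRR2–18, a log2 ratio of 1.02 (0.82 to 1.22). That call rests on the scaling, since the ratio of fold enrichment over local background was 0.28 on the log2 scale. The other shared *Pax2* intervals were nearer to equal. The interval 29791 bp upstream had 7.93 in parent and 14.6 in ΔSRR2–18, the one 13751 bp upstream had 9.63 and 13.9 (summits 597 bp apart, and a log2 ratio of 0.53 that was 0.03 between closest summits and -0.12 by local fold enrichment), and the one 1168 bp upstream had 9.86 and 11.2.

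The 5 *Pax2* intervals found in ΔSRR2–18 only ranged in summit signal from 6.0, at 9847 bp downstream, to 27.1, at 35669 bp upstream. The interval 5518 bp upstream, at 13.7, had a counterpart of 6.67 in the parent optimal list. The interval 24785 bp downstream, at 18.5, lay in the *Pax2* gene and holds SOX, AP-1 and LEF/TCF matches within its 201 bases. The last, 31951 bp upstream, stood at 13.02.

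*Pax5*, which acts with *Pax2* at the midbrain-hindbrain boundary and is needed for B cell identity, had 2 intervals in parent and 4 in ΔSRR2–18, and none within 1 kb of its TSSs in either list. Its strongest interval lay inside the gene 5823 bp downstream and had a summit signal of 80.2 in parent and 69.5 in ΔSRR2–18, a log2 ratio of -0.21 (-0.30 to -0.11). The other shared interval, 46277 bp downstream, had 32.1 in parent and 17.2 in ΔSRR2–18. The *Pax5* intervals found in ΔSRR2–18 only were weaker, at 17.6 for the one 28287 bp downstream and 8.55 for the one 22752 bp upstream.

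*Pax3*, a marker of dorsal neural tube and neural crest progenitors, had 4 intervals in parent, all shared, and 8 in ΔSRR2–18. The ΔSRR2–18-only interval 60 bp upstream of its TSS, with a summit signal of 14.0 and an IDR score of 946, had a counterpart in the parent optimal list with a summit signal of 7.62, so its absence from the parent list depends on the choice of list. Within 1 kb of a TSS, 2 of the 6 Pax genes had an interval in parent and 4 in ΔSRR2–18, with *Pax3* and *Pax7* added. Of all 21924 coding genes, 57.8% had a promoter interval in both lists and 33.5% in neither. A further 5.93% had one in the ΔSRR2–18 list only and 2.76% in the parent list only. Whether the Pax genes differed from these shares was not tested. The other 3 ΔSRR2–18-only intervals of *Pax3* had summit signals of 4.73 to 7.43. The count of 4 ΔSRR2–18-only intervals was 1 in the optimal lists, 1 at an IDR score of at least 830, and 1 or 2 with as many ΔSRR2–18 as parent intervals kept, by −log10 p or by fold enrichment. Among its shared intervals, 2 neighbours 18862 and 20076 bp upstream differed in direction. The first had 20.4 in parent and 31.2 in ΔSRR2–18, and the second had 35.3 in parent and 16.0 in ΔSRR2–18, a log2 ratio of -1.14 (-1.32 to -0.96) between summits 214 bp apart. The shared interval inside the gene, 7201 bp downstream, had 18.8 in parent and 13.8 in ΔSRR2–18. The interval with both paired-domain cores, 6807 bp upstream in parent, had 11.1 in parent and 12.7 in ΔSRR2–18.

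*Pax7*, the close relative of *Pax3* in the dorsal neural tube, had 7 intervals in parent and 9 in ΔSRR2–18, and only 3 were shared. Its promoter held an interval in ΔSRR2–18 only, 89 bp downstream of the TSS, with a summit signal of 9.92. A parent-only interval 2890 bp upstream had a summit signal of 34.9, the highest of *Pax7* in either list, and its counterpart in the ΔSRR2–18 optimal list stood at 10.1. The other 3 parent-only intervals had summit signals of 4.53 to 9.89, and that of 9.89, 21809 bp downstream with a SOX motif, had a counterpart of 4.73 in the ΔSRR2–18 optimal list. The strongest ΔSRR2–18-only interval, 10452 bp upstream, stood at 22.9, and the 4 others outside the promoter, all inside the gene, stood at 7.02 to 14.4. The shared interval 25318 bp upstream had the highest fold enrichment over local background of all Pax intervals in parent, 27.8, and stood at 25.1 in ΔSRR2–18, and its summit signal was 28.4 in parent and 26.3 in ΔSRR2–18. The shared interval 43929 bp upstream was likewise close, at 20.0 and 18.1, and the one 11352 bp downstream had 17.1 in parent and 11.0 in ΔSRR2–18.

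Over the 20 shared Pax intervals, 4 had at least 2-fold higher summit signal in ΔSRR2–18 and 1 had at least 2-fold lower. All 4 of the former belonged to *Pax2* or *Pax8*, and the latter to *Pax3*. By fold enrichment over local background the *Pax3* interval was at -0.94 and not called lower, and those called lower were the *Pax8* interval 45920 bp upstream, at -1.82, and the *Pax7* interval 11352 bp downstream, at -1.26. Over all 39096 shared intervals, 15.8% were at least 2-fold higher and 16.0% at least 2-fold lower. The median log2 ratio was 0.08 for the Pax intervals and -0.24 for all, and outside promoters it was 0.19 for 17 Pax intervals and -0.01 for all.

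**Figure D3:**
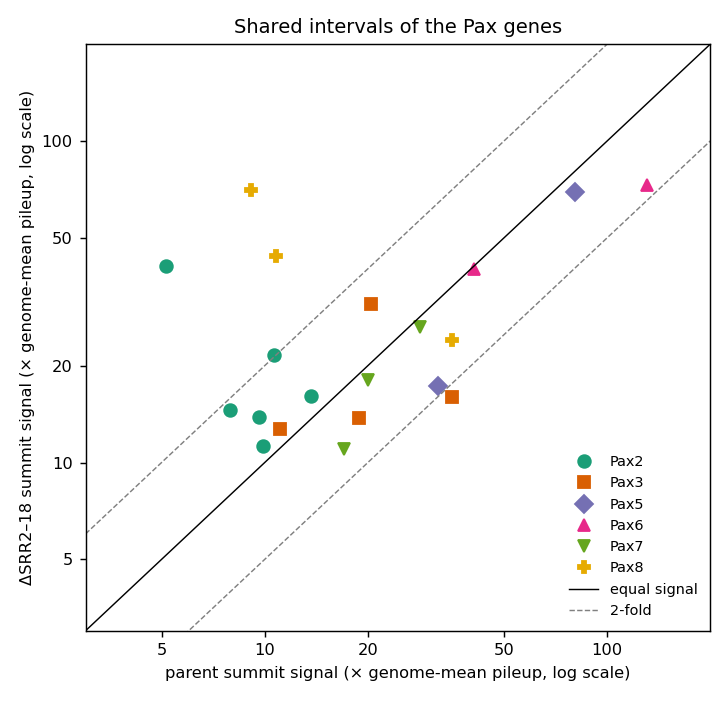
Summit signal of the 20 shared Pax intervals in parent (horizontal axis) and ΔSRR2–18 NSPCs (vertical axis), both in multiples of the genome-mean pileup on log scales, with 1 symbol per gene. The solid line marks equal signal and the dashed lines a 2-fold difference; the *Pax2* and *Pax8* points far above the upper dashed line had log2 ratios of 2.99, 2.94 and 2.02.

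AP-1 is the dimer of FOS and JUN proteins, and its motif was found in 8 of the 44 ΔSRR2–18 Pax intervals (18.2%, 95% Wilson interval 9.51 to 32.0%), against 37.9% of all ΔSRR2–18 intervals. Of the 24 Pax intervals found in ΔSRR2–18 only, 6 (25.0%) held it, against 50.7% of all such intervals. The 8 were 3 of *Pax8*, 2 each of *Pax2* and *Pax7* and 1 of *Pax5*, and *Pax3* and *Pax6* had 0. Both of the largest ratios among shared intervals, 46957 bp upstream of *Pax2* and 43041 bp upstream of *Pax8*, were at intervals with an AP-1 match. The remaining shared intervals at least 2-fold higher, 4461 bp upstream of *Pax8* and 9255 bp upstream of *Pax2*, held none. In the parent list 2 of 29 Pax intervals (6.90%) held AP-1, against 7.28% of all.

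SOX motifs, the sites of SOX2 and its relatives, were found in 3 of 29 parent Pax intervals (10.3%, 3.58 to 26.4%), against 4.43% of all parent intervals. All 3 were parent-only, at *Pax6*, *Pax7* and *Pax8*, or 3 of the 9 parent-only Pax intervals (33.3%, 12.1 to 64.6%) against 5.97% of all parent-only intervals. In ΔSRR2–18 the motif was found in 2 of 44 (4.55%), both at *Pax2* and both found there only, against 2.47% of all. The paired-domain core, the part of the Pax binding site searched here, was found in 1 Pax interval of each list, against 3.59% of all parent and 3.34% of all ΔSRR2–18 intervals. The ZIC motif was found in 5 of the 24 ΔSRR2–18-only Pax intervals (20.8%, 9.24 to 40.5%) against 7.65% of all such intervals, and in 7 of all 44 (15.9%, 7.93 to 29.4%) against 9.04%. Within 50 bp of the summit it was found in 2 of those 24 (8.33%) against 4.29%. HOX-PBX went the other way, with 0 of the 24 (0.0 to 13.8%) against 10.25% of all such intervals. Over all 44 it was found in 2 (4.55%, 1.26 to 15.1%) against 7.60%. In parent it was found in 2 of 29 (6.90%, 1.91 to 22.0%), above the 2.16% of all parent intervals. A match is a run of letters and not evidence of binding, and these shares rest on few intervals.

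**Figure D4:**
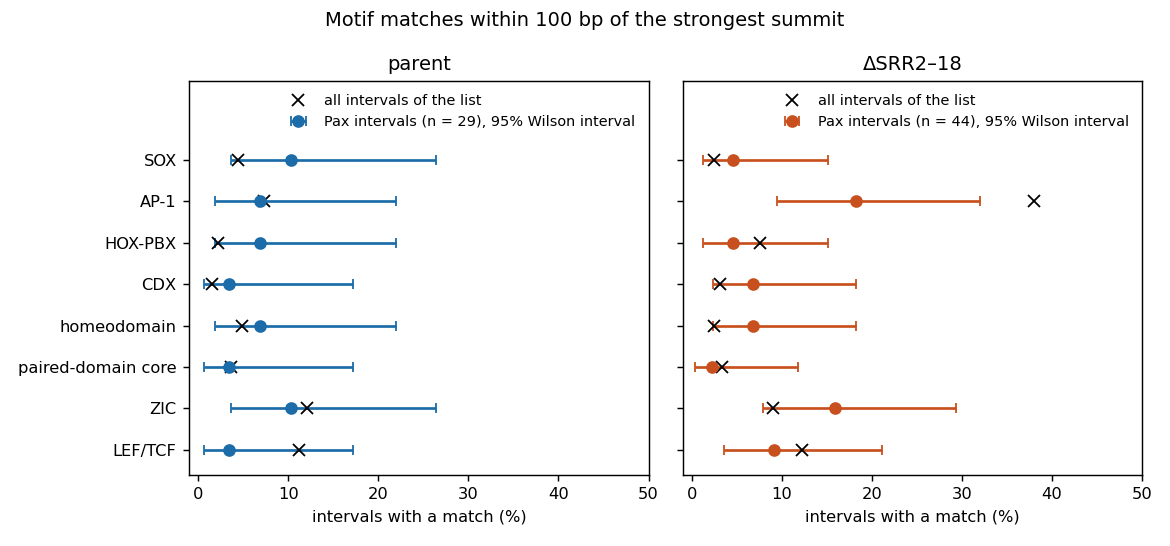
Share of intervals with an exact motif match within 100 bp of the strongest summit (horizontal axis, percent) for 8 motifs (vertical axis) in parent (left) and ΔSRR2–18 (right). Points with 95% Wilson intervals are the 29 and 44 Pax intervals and crosses are all intervals of the list, at any distance from a TSS. For AP-1 in ΔSRR2–18 the cross, at 37.9%, lies above the interval of 9.51 to 32.0%.

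The Pax intervals were rich in G and C. The median GC content of the 201 bases around the strongest summit was 59.7% in parent and 59.2% in ΔSRR2–18, against 52.2% and 48.3% over all intervals. Intervals found in both lists were the richest, with medians of 61.7% and 59.2%, and those found in 1 list only had 53.2% and 53.5%. The same order held over all intervals, with 54.7% and 54.2% for shared and 50.2% and 45.8% for one-list intervals. The ratio of observed to expected CpG dinucleotides was 0.36 in parent and 0.53 in ΔSRR2–18 for Pax intervals and 0.24 and 0.22 for all. The part of base composition in the low AP-1 share was not tested.

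Counts at other genes of the family and at partner genes are given for comparison. *Pax1*, *Pax4* and *Pax9*, which act mainly outside the neural tube, together had 8 intervals in parent, 5 of them parent-only, and 6 in ΔSRR2–18, 3 of them found there only. The 6 genes *Eya1* to *Eya4*, *Dach1* and *Dach2*, which encode cofactors that act in a network with Pax proteins in eye, ear and kidney development, had 28 intervals in parent, 18 of them parent-only, and 31 in ΔSRR2–18, 20 of them found there only. The one-list shares were 64.3% and 64.5% for these 6 genes and 62.5% and 50.0% for the 3 Pax genes. Over all intervals they were 52.3% in parent and 63.1% in ΔSRR2–18. *Eya1* had 5 parent-only and 7 ΔSRR2–18-only intervals, and *Eya2* had 6 and 5. The *Pax9* promoter stood at 127 in parent and 64.3 in ΔSRR2–18, close to the values of *Pax6*.

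The distance limit of 50 kb left out 20 parent and 36 ΔSRR2–18 intervals whose nearest gene was a Pax gene. In parent the last interval inside the limit was that of *Pax2* at 46957 bp, with a summit signal of 5.15, and the first outside was one of *Pax5* at 52493 bp, with 6.56. In ΔSRR2–18 they were one of *Pax3* at 48673 bp, with 4.88, and one of *Pax6* at 52826 bp, with 14.0.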

How the data were processed

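Reads had gone through the ENCODE ATAC-seq pipeline with MACS2 peak calling, and the authors pooled the 3 cultures per genotype by IDR into a conservative and an optimal list in mm10 coordinates. The submitters' processing notes also name deepTools. The aligner is not given in the sources used here. Per peak, the deposited columns used were the IDR score, the ratio of summit to local background (fold enrichment), the −log10 p, and a summit position, an offset of another kind.

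Read pileup and background per summit were recovered by inverting the Poisson −log10 p together with the fold enrichment, and at least 99.9993% came out within 0.05 of a whole number. They are pileup heights, so 95% intervals cover counting error only. The genome-mean pileup of a list was taken as its lowest recovered background. One allele of each autosome is Cast, whose reads can map less often to mm10. An interval took the values of its summit with the highest fold enrichment. TSSs were those of protein-coding genes in GENCODE M21 basic, promoters lay within 1 kb, and shared intervals were paired by reciprocal best overlap, with 2-fold as the call. Motif shares carry Wilson intervals. Sequences came from RefSeq GRCm38.p6.

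The members, gene lists and motifs were chosen with earlier results of these data known. Some genes of the partner network are not reported here. Named were all 6 genes, their promoter intervals, the 3 intervals per gene and list with the highest fold enrichment and the 3 shared intervals per gene with the largest ratio; further intervals were named after their values were seen. Pooled lists allowed no model and no p-value. The steps were tested on simulated data. Python 3.11.15, numpy 2.4.6, pandas 2.3.3, scipy 1.17.1 and matplotlib 3.10.9 were used.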

Additional observations from a re-analysis of the deposited data

How the results depend on the processing

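No paired analysis was possible because each list pools the cultures of a genotype, and for the same reason no culture could be left out in turn. Alternatives changed one choice at a time, and where a value moved the cause was not tested unless fewer or more intervals followed from the limit itself. The distance limit set the number of Pax intervals: 10 in parent and 16 in ΔSRR2–18 within 10 kb, with 1 parent-only and 7 ΔSRR2–18-only, and 47 and 71 within 200 kb, with 18 and 42. Shortening the ΔSRR2–18 list by fold enrichment to the length of the parent list raised the parent-only count from 9 to 15. The ΔSRR2–18 intervals then fell from 44 to 30, against 29 in parent, and those found there only from 24 to 16. The excess of ΔSRR2–18-only over parent-only *Pax2* intervals fell from 5 to 0. Shortening by −log10 p instead gave 35 intervals in ΔSRR2–18, 16 of them found there only, and 10 parent-only. By gene, the excess of ΔSRR2–18-only over parent-only intervals changed sign for *Pax6* within 10 kb (1), for *Pax5* within 200 kb (-3) and for *Pax7* in the list shortened by fold enrichment (-1). All other alternatives kept the counts over the 6 genes within 1.5 times.

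Of the shared intervals, those at least 2-fold lower in ΔSRR2–18 numbered 0 after centring on the median of all shared intervals and 2 by fold enrichment over local background (other intervals than the 1 called by summit signal), and the median log2 ratio was 0.32 and -0.07 under these, and -0.03 between closest summits. The optimal lists left these values as they were. Motif shares in a window of 50 bp on each side were 0.00% for AP-1, CDX and LEF/TCF in parent and 0.00% for CDX and 2.27% for LEF/TCF in ΔSRR2–18, while that of AP-1 in ΔSRR2–18 stayed at 18.2%. The intervals given with ratios cover counting error only, and the spread between cultures is unknown here.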
